A study of Mus musculus with 39 samples.

Results

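Mice that had breathed mainstream tobacco smoke (MTS) for 6 weeks and then spent 6 weeks without it were compared with mice killed at the end of the same exposure. All arrays titled as 6 week smoke with a 6 week break (5 mice, called the break group here) were set against all arrays titled 6 week smoke (5 mice, the smoke group), 10 of the 39 arrays of the series. Lung RNA of male C57BL/6 × CBA F1 mice, 8-10 weeks old at the start, was hybridized with Cy5 to 2-colour oligonucleotide arrays, 1 mouse per array, against a universal mouse reference RNA in Cy3. Smoke came nose-only from 2 reference cigarettes a day on 5 days a week, and the 6 weeks include a lead-up of 2 weeks. The 6 week sham group (5 mice) was held in restrainers only, and the 6 week break sham group (5 mice) was restrained in the same way and then left for 6 weeks. Another arm of mice had 12 weeks of MTS, killed at the end (4 mice) or after a 6 week break (5 mice). Break mice were 6 weeks older than smoke mice and had also been 6 weeks without restraint, so the end of smoke, the end of restraint and age cannot be told apart within the smoke arm. The same step in time without smoke is break sham against sham, which shares no array with the main comparison. The labels give 3 h after exposure for every group, the break groups too, whereas the methods describe a death 6 weeks after the last cigarette for those groups. The upper part of the left lung was used whole, so in every result below fewer cells of a type and less RNA per cell cannot be told apart.

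Polycyclic aromatic hydrocarbons in smoke bind the aryl hydrocarbon receptor (AhR), which enters the nucleus and induces enzymes that oxidise them, first of all the cytochromes P450 of family 1. Reactive oxidants and aldehydes release the transcription factor Nrf2, which induces enzymes of glutathione synthesis, quinone reduction and thiol repair. The circadian clock is a loop in which Bmal1 (the product of Arntl) and its partner drive the Per and Cry genes, whose proteins repress them. Lung cells hold such a clock, and glucocorticoids released by a stress such as restraint act on several of its genes and on their own targets.

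The values are log2 ratios of lung to reference, so a difference of 1 is a change of the lung signal by a factor of 2. The median Cy5 signal of an array was 3.31 to 7.98 times its local background in the smoke group and 2.40 to 6.97 times in the break group, and these did not separate the groups (two-sided exact permutation test, p = 0.595). Each array belonged to 1 of 5 runs, the passes through the groups in the sequence of the exposure-date labels, and every run held 1 smoke and 1 break array. The 8 arrays of run 5 were at 2.20 to 3.87 times background and those of runs 1 to 4 at 2.49 to 8.94. Run 5 held the arrays labelled 6 week sham, replicates 2 and 5, and no 12 week smoke array, while run 4 held no 6 week sham array. The array labelled 6 week sham, replicate 2, also of run 5, had a Cyp1a1 ratio of 6.46, within the smoke group's range and above the 1.25 to 2.81 of the other sham arrays, and it was kept under its label. Values of the sham arm are given without that array unless stated. Markers of alveolar type II (Sftpc, Sftpb), type I (Ager), club (Scgb1a1), ciliated (Foxj1), endothelial (Pecam1), macrophage (Cd68) and fibroblast (Col3a1) cells were above the negative controls on 10 of 10 arrays.

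Of 17560 probes tested, 396 differed between the break and smoke groups at an adjusted p under 0.05 (2.26%), 182 higher after the break (1.04%) and 214 lower (1.22%). The split was 69 higher and 219 lower when arrays were only centred on their medians. Among the 396, the smallest change was 0.28 and the largest 5.49 on the log2 scale, and 39 exceeded 1. In 251 of them the 5 break arrays did not overlap the 5 smoke arrays, which held for 3.25% of all probes. In 370 of the 396 the difference had the same sign within all 5 runs, and in the other 26 within 4. All 5 runs had 1 sign for 2684 of all 17560 probes, and the 396 were chosen in a fit blocked by run, so their count is a description. The probes carried 373 named genes. Without the array labelled 6 week sham, replicate 2, 470 passed (2.68%), without all arrays of run 5 247, without break replicate 5, of run 5, 193 and without 6 week smoke replicate 5, of run 2, 263. With no block for runs 188 passed, with array weights 801, and 611 among probes above the negative controls on all arrays compared. When only the 10 arrays compared entered the fit, 17 probes passed: Cyp1a1, Cyp1b1, Per2, Map3k6, Cbr3, Dbp, Nqo1, Aldh3a1, Cys1, Hlf, Gclc, Osgin1, Gclm, Txnrd1, Cry1 and Rhebl1 lower and Clmp higher.

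Genes induced through the AhR fell furthest. Of 14 measured, 9 were lower after the break and none higher, with a median of −0.80 against −0.0042 over 14655 named genes, of which 2.52% were called. Cyp1a1, which oxidises polycyclic hydrocarbons, had log2 ratios of 5.07, 7.08, 7.65, 8.06 and 7.07 in the smoke arrays of runs 1 to 5 and 2.19, 0.96, 1.42, 0.96 and 1.94 in the break arrays. No break array came near a smoke array, and the smoke array of run 1 was the lowest of its group. The difference was −5.49 (standard error 0.59, 45.0-fold, adjusted p = 5.67e-07), and on the smoke array of run 1 the Cy5 signal stood at 65535, the top of the scanner's scale, so its ratio there is a lower limit. The smoke arrays ran from 48393 to 65535. A mark of unstated meaning, set on 5819 of 5820 spots at the top and on some dim spots, stood on 4 of 5 smoke and 0 of 5 break arrays. Cbr3, Txnrd1 and Dbp had it on 3 of 5 smoke arrays. Compression of these ratios was not tested. Cyp1b1, another P450 of the family, had 1.61, 1.50, 1.57, 1.47 and 2.05 after smoke and −1.41, −1.59, −1.48, −1.62 and −0.63 after the break. Both run 5 arrays were the highest of their groups, and the difference within runs was steady, from −2.68 to −3.09 (−2.98 in the fit, standard error 0.38, adjusted p = 8.31e-06). Ahrr, which encodes a repressor of the receptor and is itself induced by it, had 1.44, 1.62, 0.69, 0.61 and 1.62 after smoke and −0.42, −0.42, −0.11, −0.56 and −0.37 after the break, a difference of −1.57 (standard error 0.36, adjusted p = 0.0113). The groups did not overlap, although Ahrr was above the negative controls on only 3 of 5 break arrays. Tiparp, a mono-ADP-ribosyltransferase that also restrains the receptor, fell by 0.56 (adjusted p = 0.0013), and Xdh, xanthine dehydrogenase, by 0.57 (adjusted p = 0.00369).

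Of the 7 called AhR-responsive genes with a promoter in the table, 4 held the receptor's core motif (57.1%), and these 4 are shown because they held it. The sequences are from RefSeq (GRCm38.p6), read 5′ to 3′ on the strand of the gene from the 250 bases before its start, and the capitals mark the core motif GCGTG or, on the other strand, CACGC.
Cyp1a1, chr9:57697547-57697606, plus strand: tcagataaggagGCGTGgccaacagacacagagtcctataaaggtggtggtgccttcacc
Cyp1b1, chr17:79715090-79715149, minus strand: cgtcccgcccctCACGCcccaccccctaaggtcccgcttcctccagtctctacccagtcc
Tiparp, chr3:65528265-65528324, plus strand: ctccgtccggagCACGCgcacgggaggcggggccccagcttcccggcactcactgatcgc
Ahrr, chr13:74292342-74292450, minus strand: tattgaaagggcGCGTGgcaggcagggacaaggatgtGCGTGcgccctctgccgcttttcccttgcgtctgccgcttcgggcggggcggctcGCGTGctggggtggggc
Ahrr held 3 matches within the 250 bases and each of the others 1. The motif is common: of 11685 tested genes with a promoter in the table, 43.9% held it on either strand, against 58.9% of the 163 genes called lower (of 202) and 41.4% of the 128 called higher (of 171) that had one. Of the called Nrf2 genes with a promoter 7 of 13 held it (53.8%), and of the called clock genes 6 of 7 (85.7%). The motif is therefore no trait of the AhR list alone. A match is a description of the letters and shows no binding. Nqo1 held neither this motif nor the antioxidant core motif in its window.

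Of 44 Nrf2 and antioxidant genes measured, 15 were lower after the break, none was higher and 29 did not pass (median −0.26, with 8 of 44 above 0). The called share was 34.1%, beside 2.52% of all named genes. Nqo1, Nfe2l2 and Gsta1 are counted among the called genes of the AhR list too. Nqo1, a quinone reductase that AhR and Nrf2 both induce, had log2 ratios of −0.08, 0.12, −0.03, −0.15 and 0.68 in the smoke arrays of runs 1 to 5 and −1.70, −1.49, −1.52, −1.54 and −0.74 in the break arrays. Run 5 again lay above the other runs in both groups while the difference held within runs, from −1.39 to −1.62 (−1.50 in the fit, standard error 0.19, adjusted p = 1.15e-05). Txnrd1, thioredoxin reductase 1, went from 0.30, 0.49, 0.36, 0.48 and 0.84 to −0.63, −0.60, −0.80, −0.66 and −0.40, a difference of −1.11 (standard error 0.13, adjusted p = 3.89e-06). Gclm, the modifier subunit of the enzyme that starts glutathione synthesis, went from 1.09, 1.01, 0.87, 0.97 and 1.30 to −0.07, −0.14, −0.30, −0.17 and −0.07 (−1.20, standard error 0.17, adjusted p = 3.28e-05). All break arrays lay below all smoke arrays for each of these genes. The catalytic subunit Gclc, at 2.65, 3.82, 3.18, 3.45 and 3.82 after smoke and 1.87, 2.03, 1.93, 2.11 and 2.60 after the break, fell by 1.27 (standard error 0.29, adjusted p = 0.0137), with the highest break array just under the lowest smoke array.

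Heme oxygenase 1 (Hmox1), which breaks down heme, varied more among smoke mice. It had −0.49, 0.05, −0.57, −0.47 and 0.84 after smoke and −1.73, −1.37, −1.56, −1.34 and −1.67 after the break, and fell by 1.41 (standard error 0.34, adjusted p = 0.0176). The break arrays lay within a narrow band and the smoke arrays within a wide one. Srxn1, sulfiredoxin, fell by 1.11 (adjusted p = 0.00237), but its other probe had −0.36 and did not pass (adjusted p = 0.294). Osgin1, a growth inhibitor induced by oxidants, fell by 1.26 (adjusted p = 8.31e-06). Gsta1 and Gsta3, glutathione transferases, fell by 0.92 and 0.53, and Ftl1, ferritin light chain, by 0.60. Of the wider list of glutathione metabolism, 4 of 34 measured were lower and 2 higher, Gstt3 (0.79, adjusted p = 0.000263) and Mgst2 (0.48, adjusted p = 0.0268). The 4 lower genes, Gclc, Gclm, Gsta1 and Gsta3, are also in the Nrf2 list, and 17.6% of this list was called.

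Of the 13 called Nrf2 genes with a promoter, 4 held the antioxidant core motif TGACNNNGC (30.8%). Srxn1, Cbr3, Adh7, Akr1b8 and Gsta1 were among those without it. Txnrd1 and Gclm are shown because they held it, Txnrd1 in 1 of its 3 promoters. Here the capitals mark the motif as it reads on the strand opposite to the gene's.
Txnrd1, chr10:82859102-82859161, plus strand: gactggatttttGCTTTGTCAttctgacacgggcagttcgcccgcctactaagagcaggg
Gclm, chr3:122245411-122245470, plus strand: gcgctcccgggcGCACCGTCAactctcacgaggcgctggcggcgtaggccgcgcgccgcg
Of tested genes with a promoter 13.4% held this motif on either strand, of genes called lower 16.6% and of genes called higher 12.5%. Where its first free base is C, TGACNNNGC overlaps GGTCA read on the other strand.

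Aldehydes are a large part of the vapour phase of smoke, and 6 of 22 oxidoreductases of aldehydes, alcohols and carbonyls fell while none rose (median −0.24). The called share was 27.3%, beside 2.52% of all named genes. All 6 (Aldh3a1, Cbr3, Adh7, Akr1b8, Aox1 and Xdh) are already counted in the AhR or Nrf2 lists, so they are no further set of genes. Aldh3a1, an aldehyde dehydrogenase, went from 0.91, 1.54, 1.19, 1.41 and 2.11 to −0.17, −0.11, −0.20, −0.26 and 0.40 in runs 1 to 5 (−1.50, standard error 0.20, adjusted p = 1.7e-05). Cbr3, a carbonyl reductase, went from 2.38, 2.84, 2.64, 2.85 and 3.09 to 1.46, 0.81, 0.80, 1.10 and 1.58 (−1.61, standard error 0.22, adjusted p = 3.12e-05). Neither gene had a break array as high as any smoke array. Adh7, an alcohol dehydrogenase of epithelia, had a difference of −1.40 (standard error 0.29, adjusted p = 0.00569), with overlap between the groups. Akr1b8 and Aox1 fell by 0.73 and 0.62. By contrast none of 23 other cytochromes P450 and flavin monooxygenases passed, with Cyp2a4 at −0.83 (adjusted p = 0.296) and Cyp26b1 at 0.73 (adjusted p = 0.596) as the largest differences.

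**Figure D1:**
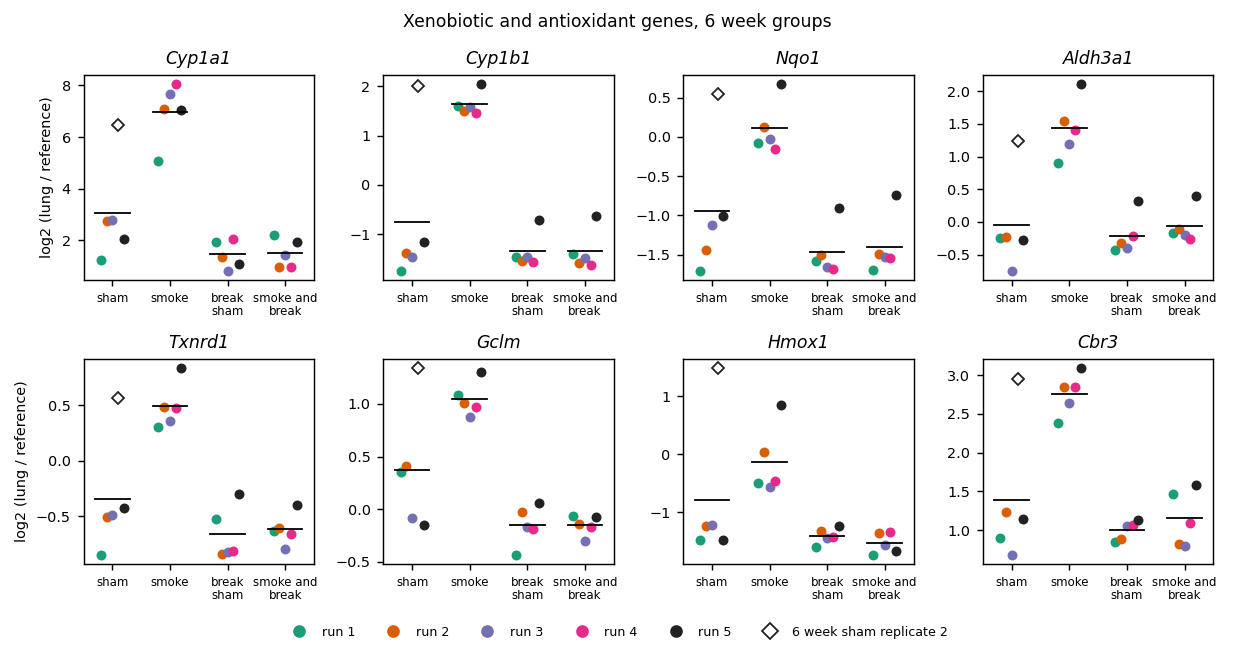
Log2 ratio of lung to reference (y axes) of 8 genes of xenobiotic and antioxidant metabolism in the 4 groups of the 6 week arm (x axes). Points are single arrays coloured by run, black bars are group means over all arrays shown, and the open diamond is the array labelled 6 week sham, replicate 2. The 5 smoke arrays lie above the 5 break arrays for each gene, and the break arrays lie near the break sham arrays.

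In the sham arm, which lacked smoke, none of these genes passed the test. Break sham minus sham was −0.82 for Cyp1a1 (adjusted p = 0.692), 0.10 for Cyp1b1 (adjusted p = 0.944), −0.11 for Nqo1 (adjusted p = 0.881), −0.0016 for Cbr3 (adjusted p = 0.998) and −0.083 for Txnrd1 (adjusted p = 0.895), and no other gene of the AhR and Nrf2 lists passed. With the array labelled 6 week sham, replicate 2, in the fit, Gsta1 (−0.81, adjusted p = 0.0359) and Osgin1 (−0.71, adjusted p = 0.0379) passed. The medians of these lists without it were −0.14 and −0.040. Between the arms, the change in the smoke arm minus that in the sham arm passed for no probe when all arrays entered the fit (0%, with 1149 at an unadjusted p under 0.05, limma). Without the array labelled 6 week sham, replicate 2, it passed for 12 probes (0.0683%): Cyp1a1, Cyp1b1, Ahrr, Aldh3a1, Cbr3, Nqo1, Hmox1, Txnrd1, Akr1b8, Gclm and Bcl3, which fell more in the smoke arm, and Sp100, for which the difference was positive. Without all arrays of run 5 it passed for 6 of them (Cyp1a1, Cyp1b1, Cbr3, Aldh3a1, Nqo1 and Txnrd1). Sp100, an interferon-induced protein of nuclear bodies, rose by 0.47 after the break in the smoke arm (adjusted p = 0.017) and had −0.31 in the sham arm (adjusted p = 0.367), while its 2 other probes had 0.43 and 0.38 in the smoke arm and did not pass. In the sham arm, with all arrays in the fit, these 2 probes had 0.44 and −0.035. The first of them thus changed about alike in both arms.

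Against the break sham group, mice of the same age that had not smoked, no probe passed (0%, limma, with 758 at an unadjusted p under 0.05), and without the array labelled 6 week sham, replicate 2, 1 probe passed (0.00569%), that of Nr1d1, a repressor of the clock gene Arntl, which was named after its value was seen. Nr1d1 was lower in the break than in the break sham group by 0.83 (adjusted p = 0.0284, and 0.0789 with all arrays), while its difference from the smoke group was −0.062 (adjusted p = 0.912). Cyp1a1 in the break group was 0.04 above break sham, Cyp1b1 0.01, Nqo1 0.07, Txnrd1 0.04 and Gclm 0.00 (adjusted p of 0.999 to 1 for each). The 95% intervals of these differences still allowed −1.16 to 1.24 for Cyp1a1, −0.76 to 0.77 for Cyp1b1, −0.32 to 0.46 for Nqo1 and −0.23 to 0.31 for Txnrd1.

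Clock genes made the next large group, and here genes of the sham arm passed too. Of 22 measured, 8 were lower after the break and 1 higher (median −0.39), while in the sham arm 3 fell and 1 rose (median −0.18). In the smoke arm 40.9% of the list was called, beside 2.52% of all named genes. Per2, a repressor of the clock's loop, had log2 ratios of 3.47, 3.35, 3.63, 3.89 and 3.58 in the smoke arrays of runs 1 to 5 and 0.98, 1.03, 0.81, 1.67 and 1.00 in the break arrays. The groups were far apart, and the break array of run 4 stood above the rest of its group. The difference was −2.49 (standard error 0.23, 5.60-fold, adjusted p = 5.45e-08), beside −1.79 in the sham arm (adjusted p = 0.000305). Dbp, a transcription factor that the clock drives directly, went from 0.93, 1.82, 1.78, 1.79 and 1.58 to −0.17, 0.32, −0.51, 0.45 and 0.13 (−1.54, standard error 0.17, adjusted p = 5.67e-07), beside −1.00 in the sham arm (adjusted p = 0.00937). On the smoke array of run 1 the Cy5 signal of Dbp stood at the top of the scale, so 0.93 is a lower limit. Its relative Hlf went from 1.99, 1.93, 2.30, 2.44 and 2.23 to 0.59, 0.41, 0.88, 0.89 and 1.02 (−1.42, standard error 0.15, adjusted p = 5.11e-07), beside −1.17 in the sham arm (adjusted p = 4.93e-05). For Dbp and Hlf too, no break array reached a smoke array. The change in the smoke arm minus that in the sham arm was −0.70 for Per2 (adjusted p = 0.689) and did not pass for the other clock genes either.

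Arntl, whose product drives the loop and which peaks opposite to Per2, went the other way. It had −1.06, −0.26, −0.69, −0.64 and 0.10 after smoke and 0.37, 0.35, 0.39, 0.21 and 0.37 after the break. The break arrays were close together and all above the smoke arrays, but Arntl was above the negative controls on only 2 of 5 smoke and 4 of 5 break arrays. It rose by 0.85 (standard error 0.18, adjusted p = 0.00722) and by 1.01 in the sham arm (adjusted p = 0.0108). Arntl is known to be driven through ROR response elements. Only the letters GGTCA of their core were searched, and these stand at 2 positions in the stretch shown here. The letters around them were not compared with a whole element, so the matches are not shown to be such elements.
Arntl, chr7:113207255-113207314, plus strand: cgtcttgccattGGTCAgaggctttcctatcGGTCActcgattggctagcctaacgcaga
This core was found in 37.8% of the tested genes that had a promoter, on either strand. Other members that fell in the smoke arm were Nr1d2 (−1.12), a repressor of Arntl, Cry1 (−1.05), Bhlhe40 (−0.70), Nampt (−0.45) and Rora (−0.43). In the sham arm these had −0.51, −0.67, −0.47, −0.18 and −0.36, none past the threshold. Per1 had −0.34 (adjusted p = 0.445). The hour of death of the mice is not given in the sources used here, and its part in these values was not tested.

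Glucocorticoid-responsive genes were lower in 4 of 29 (13.8%, beside 2.52% of all named genes called) and higher in none (median −0.34). Map3k6, a stress-activated kinase, had 2.18, 2.24, 2.17, 2.58 and 2.27 after smoke and 0.68, 0.49, 0.72, 0.98 and −0.25 after the break, with no overlap (−1.77, standard error 0.21, adjusted p = 2.92e-06). Tsc22d3, a mediator of glucocorticoid action known as Gilz, went from 3.02, 3.30, 3.46, 3.50 and 3.15 to 2.04, 2.28, 2.74, 2.37 and 1.52 (−1.10, standard error 0.14, adjusted p = 1.99e-05). Both fell in the sham arm as well, by 1.01 (adjusted p = 0.0223) and 0.72 (adjusted p = 0.0393). Klf9 and Arrdc2 fell by 0.81 and 0.41 in the smoke arm, and Fkbp5, a chaperone of the receptor, had −0.68 (adjusted p = 0.147).

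**Figure D2:**
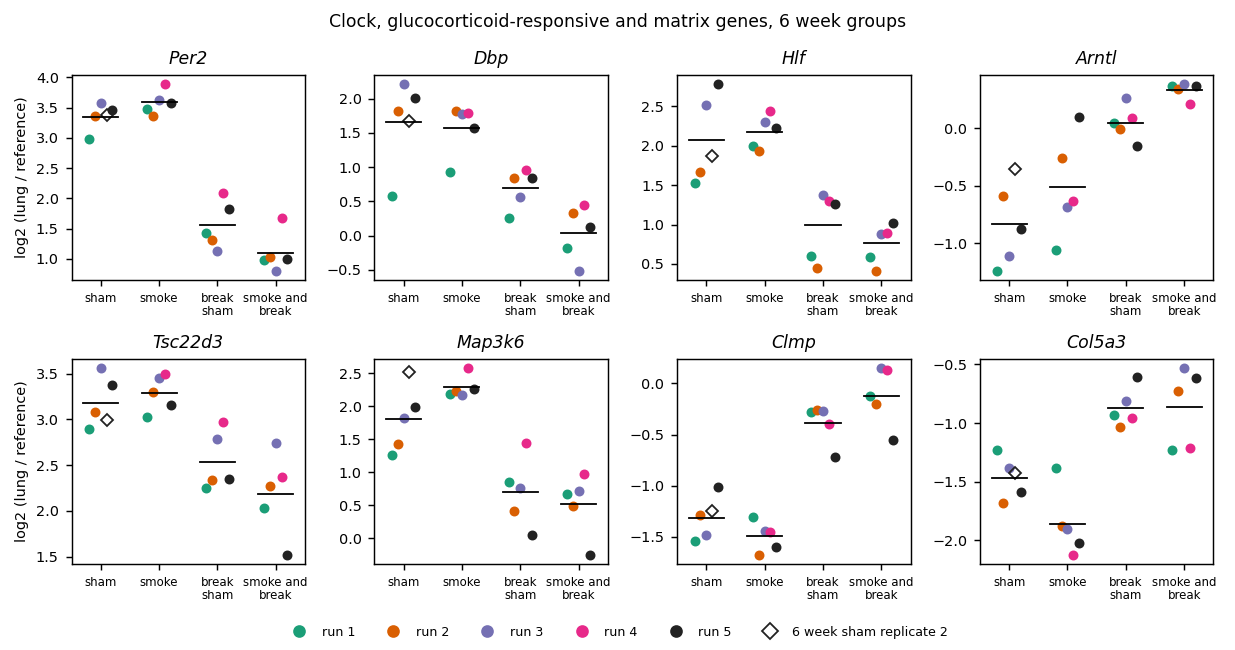
Log2 ratio of lung to reference (y axes) of 8 genes of the clock, glucocorticoid and matrix groups in the 4 groups of the 6 week arm (x axes), drawn as in the plot of xenobiotic genes. For Per2, Dbp and Hlf the means of both groups with a break lie below those of both groups without one, and for Arntl and Clmp they lie above.

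Over the whole table, 51 probes passed in the sham arm with all arrays in the fit (0.29%) and 35 without the array labelled 6 week sham, replicate 2 (0.199%), 15 higher and 20 lower after the break. Of the 396 probes called in the smoke arm, 27 passed in the sham arm without that array (42 with it) and moved the same way, and none passed in the opposite direction. A change of the same sign, whether called or not, was seen for 338 of the 396 (85.4%), against 55.9% of all probes. The sizes were smaller: the median over the 182 higher probes was 0.50 in the smoke arm and 0.23 in the sham arm, and over the 214 lower probes −0.56 and −0.21. These probes were chosen for their change in the smoke arm, so a smaller value in an arm not used to choose them has no test attached.

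**Figure D3:**
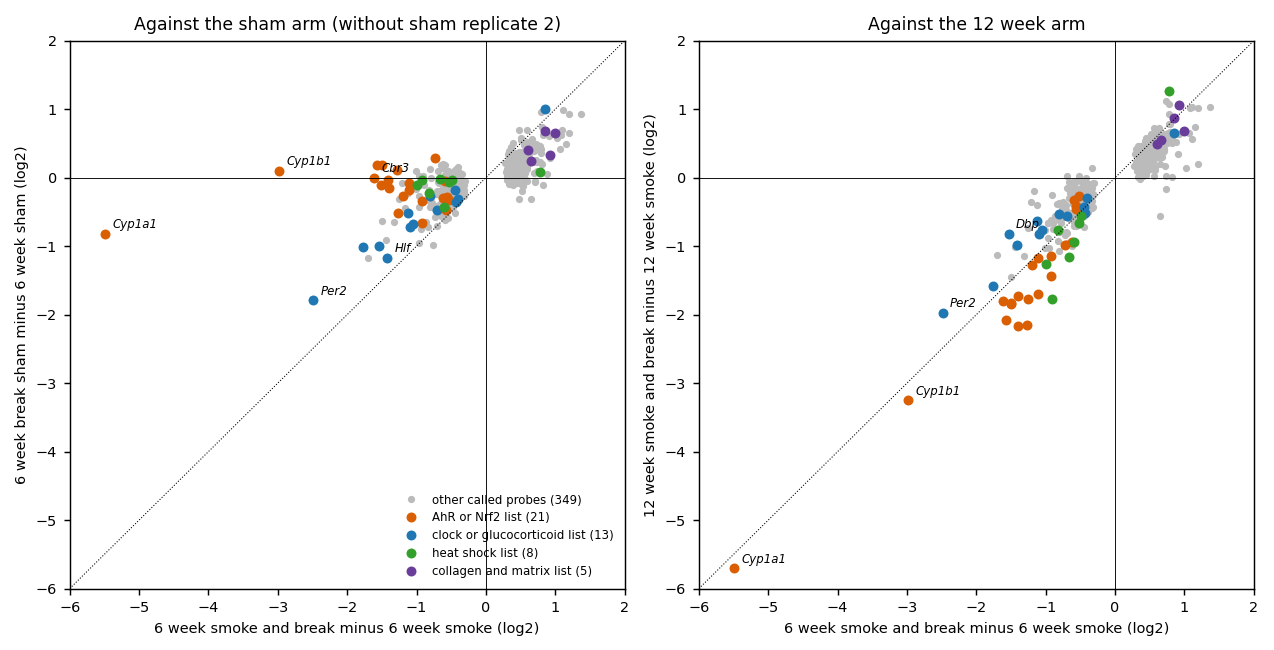
Log2 change of the 396 called probes after the break in the 6 week smoke arm (x axes) against the change in the sham arm without replicate 2 of 6 week sham (left, y axis) and in the 12 week smoke arm (right, y axis). Colours mark gene lists, and the dotted line marks equal change. Cyp1a1 and Cyp1b1 lie at −0.82 and 0.10 in the sham arm and at −5.70 and −3.25 in the 12 week arm, whereas Per2 lies at −1.79 and −1.97.

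The 12 week arm held other mice with a longer exposure, and 286 of 17560 probes passed there (1.63%). Of the 396 probes, 149 passed in that arm in the same direction and none in the opposite one (37.6%), and 390 had the same sign (98.5%, against 61.9% of all probes). The medians over the higher and lower probes were 0.36 and −0.42. Cyp1a1 fell by 5.70 (adjusted p = 2.24e-06), Cyp1b1 by 3.25 (adjusted p = 7.29e-06), Gclc by 2.15, Hmox1 by 2.17 and Per2 by 1.97 after the longer exposure. The difference between the arms passed for 1 probe (0.00569%, with 724 at an unadjusted p under 0.05), Kif20a, a kinesin of cell division. It had −4.26, −4.21, −4.21, −4.45 and −4.70 in the 6 week smoke arrays and −3.32, −3.69, −3.73, −3.97 and −3.88 in the break arrays, a rise of 0.65 (adjusted p = 0.00857) with no overlap, beside −0.56 at 12 weeks (adjusted p = 0.0518). The difference between the arms was lost without run 5 (adjusted p = 0.505), and no probe passed with no block, run as a random block, median centring, no filter or only the arrays compared. The other 42 proliferation genes measured did not pass at 6 weeks, so 2.33% of that list was called, beside 2.52% of all named genes.

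Heat shock genes and chaperones fell in 7 of 24 (median −0.30), and 1 rose. The called share was 33.3%, beside 2.52% of all named genes. Hspa8, the constitutive Hsp70, had −0.12, 0.26, −0.29, 0.36 and 0.19 after smoke and −0.04, −1.01, −0.94, −1.22 and −1.34 after the break (−0.99, standard error 0.22, adjusted p = 0.0106). The break array of run 1 lay among the smoke arrays, and 2 of 5 smoke arrays were at the top of the scale for this probe. Hsph1, its nucleotide exchange factor, went from 0.28, 0.01, 0.05, 0.58 and 0.48 to −0.56, −0.81, −0.78, −0.83 and −0.19 (−0.92, standard error 0.25, adjusted p = 0.0467). Hspb1, Hspa4l, Hspe1, Dnaja1 and Fkbp4 fell by 0.82, 0.66, 0.60, 0.53 and 0.49, and Hspb1 was at the top of the scale on 4 of 5 smoke arrays. Hsph1 lost its call in 16 of 24 alternatives and Hspb1 in 12 of 23. The member that rose was Cirbp, an RNA-binding protein induced by cold, from −0.39, 0.42, 0.28, 0.41 and 0.24 to 0.67, 0.78, 1.13, 1.13 and 1.15 (0.78, standard error 0.17, adjusted p = 0.00722). In the sham arm none of the list passed (median −0.033), and at 12 weeks 11 fell and 1 rose (median −0.52). Of 28 genes of the unfolded protein response 3 fell (10.7%), Xbp1 (−0.56, adjusted p = 0.000706), which drives the secretory machinery, Dnajb9 (−0.54) and Herpud1 (−0.48).

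Macrophage genes were lower in 4 of 27 (14.8%, beside 2.52% of all named genes called) and higher in none (median −0.40). The mean log2 ratio of the list was 1.10 to 1.77 over the smoke arrays and 0.66 to 1.20 over the break arrays, which overlapped, and 21 of the 27 genes were above the negative controls on all 10 arrays. Gpnmb, a glycoprotein of lipid-laden macrophages, had −1.98, −1.15, −2.18, −1.93 and −2.12 after smoke and −3.14 to −2.64, with a median of −2.95, after the break (−1.01, standard error 0.18, adjusted p = 0.00139). All break arrays were below all smoke arrays, and the smoke array of run 2 was the highest. Lgals3, galectin 3, went from −1.19, −0.79, −1.41, −1.38 and −1.38 to −1.74, −1.55, −1.54, −2.07 and −2.40 (−0.63, standard error 0.17, adjusted p = 0.0413). The chemokine Ccl6 spread widely in both groups, from 3.96 to 5.91 after smoke and from 2.62 to 5.06 after the break, and fell by 1.21 (adjusted p = 0.0236). Atp6v0d2, a subunit of the proton pump of lysosomes, fell by 1.01 (adjusted p = 0.0199), and Chil3, a chitinase-like protein of alveolar macrophages, had −1.30 with an adjusted p of 0.136. Lgals3 lost its call in 14 of 24 alternatives, Ccl6 in 9 of 24 (−0.56, adjusted p = 0.163 without scanner-marked spots) and Atp6v0d2 in 7 of 22. In the sham arm none of the list passed, and its median was 0.11. Of 40 lysosome genes 3 fell (7.5%, median −0.12), Atp6v0d2, Scarb2 and Npc2, and Npc2 lost its call in 13 of 24 alternatives.

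No gene passed of 16 neutrophil, 25 dendritic cell and 26 T and NK cell genes, of which 5, 14 and 15 were above the negative controls on all 10 arrays. Of 21 B cell genes Xbp1 alone passed, lower, while the median of the list was 0.29. Mast cell and eosinophil genes gave 1 of 12, Hdc, histidine decarboxylase, higher by 0.59 (adjusted p = 0.0137). Among 35 chemokines and receptors Cxcl13, which attracts B cells, and Cxcl15, made by lung epithelium, rose by 0.65 and 0.80, and Ccl6 fell. Cxcl15 rose in the sham arm as well (0.96, adjusted p = 0.0327). Of 31 inflammatory cytokines and mediators 2 rose, Ptges (0.43) and Il1r1 (0.30). Il1r1 lost its call in 17 of 24 alternatives, Ptges in 9 of 24, Cxcl13 in 14 of 23 and Cxcl15 in 8 of 23. Ptgs2, cyclooxygenase 2, had −0.90 and missed the threshold (adjusted p = 0.0543), but passed in 10 of 24 alternatives. Of 39 interferon-responsive genes Sp100 rose and Ifit3 fell. Over all named genes 2.52% were called, beside 4.76% of the B cell list and 5.13% of the interferon list. The share was 8.33% of the mast cell and eosinophil list, 8.57% of the chemokine list and 6.45% of the inflammatory list.

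IL-6 and Stat3 signalling had 4 of 34 genes lower (11.8%, beside 2.52% of all named genes called). These were Osmr, the oncostatin M receptor (−0.68, adjusted p = 0.00192), Bcl3 (−0.62), Pias1 (−0.59) and Socs3, the feedback inhibitor (−0.45, adjusted p = 0.0482). Socs3 lost its call in 16 of 24 alternatives, Pias1 in 16 of 22 and Bcl3 in 5 of 24. Il6 itself, above the negative controls on only 3 of 5 smoke arrays, had 0.39 (adjusted p = 0.59), and 1.01 (adjusted p = 0.00557) without scanner-marked spots. That setting also drops dim spots: those with mark 2 had a median Cy5 signal of 170, and Il6 stood at 228 to 431 after smoke. How many arrays were left for Il6 was not counted, so no change is read from that value. None of 26 immediate early genes passed.

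Of 49 genes of the extracellular matrix 5 were higher after the break and none lower, while the list's median was 0.0095. The called share was 10.2%, beside 2.52% of all named genes. Col3a1, the main fibrillar collagen of soft tissue beside type I, had −1.00, −1.81, −1.49, −1.85 and −1.55 after smoke and −0.84, −0.47, −0.29, −0.75 and −0.73 after the break (0.93, standard error 0.17, adjusted p = 0.00109). The 2 groups came closest in run 1, with a difference of 0.16. Col5a1 and Col5a3, chains of collagen V, which sets the width of fibrils, rose by 0.66 (adjusted p = 0.000156) and 1.00 (adjusted p = 3.28e-05). Col5a1 had −2.38, −2.47, −2.40, −2.33 and −2.03 after smoke and −1.86, −1.60, −1.70, −1.73 and −1.43 after the break, without overlap. Loxl1, which crosslinks elastin, went from −0.71, −0.61, −0.92, −0.86 and −1.04 to −0.19, 0.22, 0.26, 0.38 and −0.54 (0.85, standard error 0.14, adjusted p = 0.000601). Mmp14, a membrane metalloproteinase, rose by 0.61 (adjusted p = 0.000118). In the sham arm these 5 had 0.33, 0.24, 0.65, 0.69 and 0.40 in the order given, none past the threshold. Their adjusted p were 0.591, 0.468, 0.0621, 0.0599 and 0.0745 (limma). With the array labelled 6 week sham, replicate 2, in the fit, 3 genes of the list were called higher in the sham arm and 1 lower. Without all arrays of run 5, Loxl1 passed in the sham arm (0.87, adjusted p = 0.0126). Col1a1 in the smoke arm had 0.18 (adjusted p = 0.529). None of 22 fibroblast and pericyte genes passed.

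Among the other cell types of the lung, endothelial genes were lower in 2 of 33. Edn1, the vasoconstrictor endothelin 1, had 3.54, 3.64, 2.94, 3.46 and 3.18 after smoke and 2.00, 1.82, 2.13, 2.64 and 1.92 after the break (−1.25, standard error 0.23, adjusted p = 0.00153), without overlap. Thbd, thrombomodulin, fell by 0.74 (adjusted p = 0.00937). Club and secretory cell genes gave 2 of 24, Aldh3a1 and Gsta3, both lower, and simple epithelial keratins and junctions 2 of 23, Krt19 (−0.55) and Elf3 (−0.60), both lower. Krt19 lost its call in 10 of 24 alternatives, and Elf3 and Gsta3 each in 9 of 24. Of 24 alveolar type II genes only Cxcl15 passed, and none passed of 18 type I and 28 ciliated cell genes. No call was made among 34 cardiac and skeletal muscle, 18 smooth muscle, 10 erythrocyte, 17 adipocyte, 9 metallothionein, 34 proteasome and 58 respiratory chain genes. Fatty acid oxidation gave 2 of 26, Acot1 (0.61) and Acadm (0.59), sterol and fatty acid synthesis 1 of 29, Idi1 (0.46), p53 targets 1 of 21, Bbc3 (0.36), and heme and iron genes 2 higher (Cp and Uros) and 2 lower (Hmox1 and Ftl1) of 27. Bbc3 rose in the sham arm as well (0.44, adjusted p = 0.032, limma). Acadm and Uros each lost the call in 11 of 24 alternatives. Of the endothelial list 6.06% was called, of the club and secretory list 8.33% and of the keratin list 8.7%. For fatty acid oxidation the share was 7.69% and for heme and iron 14.8%. Over all named genes 2.52% were called, beside 3.45% of the synthesis list, 4.76% of the p53 list and 4.17% of the alveolar type II list. Counts of 1 or 2 in a list were not tested against that share.

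**Figure D4:**
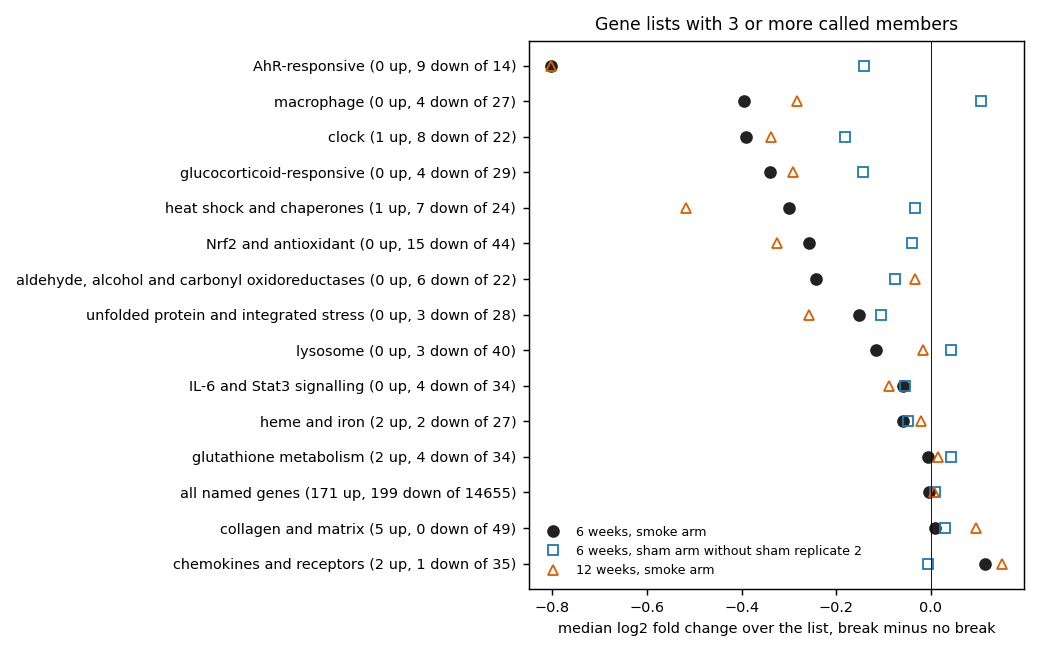
Median log2 fold change over each gene list with 3 or more called members, and over all named genes (x axis), for break minus no break. Filled circles are the 6 week smoke arm, open squares the 6 week sham arm without replicate 2 of 6 week sham, and open triangles the 12 week smoke arm. The AhR list lies at −0.80 in both smoke arms and at −0.14 in the sham arm, and the counts beside each name are of the 6 week smoke arm.

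The largest rises lay outside these lists. Clmp, an adhesion molecule of epithelia, had −1.31, −1.67, −1.44, −1.45 and −1.60 after smoke and −0.13, −0.21, 0.15, 0.12 and −0.55 after the break (1.37, standard error 0.12), with the smallest adjusted p of the comparison (1.23e-08), and it rose in the sham arm by 0.94 (adjusted p = 0.000158). Mrln, the muscle micropeptide myoregulin, went from −0.38, −0.53, −0.58, −0.48 and −0.08 to 0.43, 0.72, 1.16, 0.79 and 0.83 (1.20, adjusted p = 8.31e-06), with 0.66 in the sham arm (adjusted p = 0.0891). Nxph3, a secreted ligand of neurexins, went from 0.94, 1.18, 1.51, 1.26 and 0.91 to 2.05, 1.80, 2.69, 2.19 and 2.64 (1.11, adjusted p = 0.000118), and rose by 0.99 in the sham arm (adjusted p = 0.00937). None of these overlapped between smoke and break arrays, but they were picked among probes without overlap, so the separation follows from the rule. Ddx25 (1.16), Gyg, which primes glycogen (1.08), Adm, adrenomedullin (0.83), Tiam1, an activator of Rac (0.79), Ptpro (0.78) and Ltb, lymphotoxin beta (0.78), rose too, none of them called in the sham arm. Ccdc88c rose by 0.81, but its other probe had 0.42 and did not pass (adjusted p = 0.434).

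Large falls outside the lists were those of Tspan4, Npr3 and Cys1. Tspan4, a tetraspanin, had −0.12, 1.13, 0.79, 1.31 and 0.89 after smoke and −0.90, −0.70, −0.85, −0.72 and −1.34 after the break (−1.70, standard error 0.17, adjusted p = 1.79e-07), with the smoke array of run 1 at the top of the scale. Npr3, the clearance receptor of natriuretic peptides, went from 2.49, 2.27, 2.67, 3.18 and 2.91 to 1.65, 0.98, 1.45, 0.90 and 1.02 (−1.50, adjusted p = 2.29e-05), and its other probe fell by 1.32 (adjusted p = 0.000195). Cys1, cystin of the primary cilium, went from 2.96, 3.22, 3.22, 3.84 and 3.15 to 1.71, 2.22, 1.91, 1.84 and 1.52 (−1.44, adjusted p = 1.22e-06). The groups were apart for all 3 genes, again by the rule that picked them. In the sham arm Tspan4 fell by 1.18 (adjusted p = 0.0013) and Cys1 by 0.92 (adjusted p = 0.0142), while Npr3 had −0.63 (adjusted p = 0.391).

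Of the 64 measured genes that the study lists as responding to smoke, 29 were lower after the break and 11 higher (62.5%). The study chose that list on arrays that include the smoke group, so the count is no independent evidence of its direction. Among those not yet named, Sphk1, sphingosine kinase 1, fell by 0.82 (adjusted p = 3.56e-05), Bcar3 by 0.90 and Phlpp1 by 0.79, with −0.18, −0.34 and 0.00026 in the sham arm, none past the threshold. Ank3 and Scly rose by 0.70 and 0.58, and Pomt1 by 0.47.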

How the data were processed

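Lung RNA (Cy5) and a universal mouse reference RNA (Cy3) were hybridized in 1 orientation to 39 arrays of 22575 spots (1257 of them controls) with 20868 gene probes. ImaGene was used by the authors for quantification. Its deposited output holds, per dye, the intensity of each spot and of its surroundings, before any correction or normalization, with a quality mark of another kind for each spot whose meaning is not given in the sources used here. The authors also deposited normalized log2 ratios of lung to reference, used as an alternative. No other column of values per sample was found (0).

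From the medians, normexp background correction (offset 50), loess within arrays (control spots not weighted in) and the mean over repeated spots gave each probe 1 log2 ratio per array. A probe was kept where Cy5 exceeded the array's threshold, set from the negative control spots as their mean plus 3 SD, both after trimming 5% at each end, in at least 4 arrays of a group, which left 17560. Depth on these arrays is signal over background: Cy5 was 2.20 to 8.94 times background, 48.4% to 94.6% of probes per array exceeded the threshold, and the number of arrays limits the precision. No pair of arrays was alike beyond r = 0.967.

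All arrays entered 1 linear model of the 8 groups, with the 5 runs as a fixed block (R 4.3.3, limma 3.58.1 and data.table, version 1.17.8), and the moderated statistics were called at 0.05 after Benjamini-Hochberg adjustment across the 17560 probes. The study blocked on dates of hybridization and exposure, and the runs were read here from the sequence of exposure-date labels. Some of these labels cannot be true dates given the exposure lengths, so the block is inferred. Replicate numbers follow the sequence of deposit and pair nothing. Deviations of smoke and break arrays of 1 run correlated at 0.0798 to 0.342 and those of different runs at −0.21 to 0.322.

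Probes with 1 symbol (18235) were named, 19 symbols were updated, and probes with several (30) or none (2603) were tested but not named. Named genes were the 15 largest falls and rises without overlap, up to 4 called members per list (otherwise the 2 largest differences, not past the threshold), a fixed set of smoke, clock, macrophage and matrix genes, and the 5 largest changes of the other comparisons. Other called members of a list are named as a count requires. Where probes of a gene were several, the brightest stands for it. The members, lists and tests were chosen with earlier results of these data known. Promoters are the 250 bases before each start (32851 promoters of 27025 genes). Alternatives covered background correction, normalization, starting values, spot summary, probe filter, marks, block, arrays in the fit, weights, threshold and each array left out. Leaving out all of run 5 was added after the data were seen.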

Additional observations from a re-analysis of the deposited data

Results flagged for a closer look

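Among 148 groups of arrays (37 genes in the 4 groups of the 6 week arm), 23 held an array far from the others of its group, where chance alone gives about 7.4. Most of them were of run 5. The array labelled 6 week sham, replicate 2, stood apart in Cyp1b1 (2.00), Ahrr (2.52), Aldh3a1 (1.25), Cbr3 (2.94), Gclc (4.21), Hmox1 (1.49), Srxn1 (1.04), Hsph1 (1.59) and Cirbp (−0.27), each a log2 ratio of lung to reference. Each of these values lay within the range of the smoke arrays or farther from the other sham arrays than that range. Other arrays of run 5 stood above their groups in Cyp1b1 (smoke 2.05, break sham −0.71, break −0.63), Nqo1 (break sham −0.91, break −0.74), Aldh3a1 (break sham 0.31, break 0.40) and Cirbp (break sham 1.10). Within run 5 the break array was still below the smoke array for Cyp1b1, Nqo1 and Aldh3a1. Outside run 5, the break array of run 4 was high in Per2 (1.67) and low in Arntl (0.21), the smoke array of run 1 low in Dbp (0.93, a lower limit, with Cy5 at the top of the scale) and Cirbp (−0.39), that of run 4 high in Map3k6 (2.58) and that of run 2 high in Gpnmb (−1.15).

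The change over the break differed between the smoke and the sham arm for 12 genes once the array labelled 6 week sham, replicate 2, was left out. The change in the smoke arm minus that in the sham arm was −4.67 for Cyp1a1, −3.09 for Cyp1b1, −1.76 for Ahrr, −1.68 for Aldh3a1, −1.61 for Cbr3, −1.39 for Nqo1, −1.37 for Hmox1, −1.03 for Txnrd1, −1.01 for Akr1b8, −0.94 for Gclm, −0.81 for Bcl3 and 0.79 for Sp100 on the log2 scale, each past an adjusted p of 0.05 (limma). Only the brightest probe of Sp100 passed. Without any array of run 5, 6 genes passed, with −4.77 for Cyp1a1, −3.07 for Cyp1b1, −1.63 for Cbr3, −1.51 for Aldh3a1, −1.36 for Nqo1 and −0.94 for Txnrd1. Between the 6 and 12 week arms the change over the break differed for Kif20a by 1.20, which was lost without run 5 (adjusted p = 0.505).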

How the results depend on the processing

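The count of probes changed between the smoke and break groups was 396, and 188 with no replicate block (15 in the sham arm, 150 at 12 weeks, 0 for the difference between 6 and 12 weeks). The replicate numbers pair no arrays, so the block stands for runs. It was 17 with only the arrays compared (0 in the sham arm, 15 at 12 weeks, 0 for the 6 and 12 week difference), 611 for probes above threshold in all arrays compared, 801 with array weights (631 at 12 weeks, 8 for the difference between smoke and sham arms, 5 against break sham) and 644 at an adjusted p under 0.1 (78 in the sham arm, 485 at 12 weeks, 1 against break sham). Without all of run 5 it was 247, with 26 in the sham arm, 6 for the difference between arms and 0 between 6 and 12 weeks. Median centring gave 172 at 12 weeks and spot means 29 in the sham arm. Leaving out scanner-marked spots gave 2 for the difference between arms and 3 between 6 and 12 weeks, which was 0 with median centring, no filter or run as a random block. Against break sham 1 passed with no background correction, deposited ratios, the stricter filter or without 6 week sham replicate 2, where the difference between arms gave 12.

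Leaving out 1 array at a time gave 193 (without break replicate 5, of run 5) to 330 probes in the main comparison (263 without 6 week smoke replicate 5), 32 (without break sham replicate 5) to 50 in the sham arm, 140 (without 12 week smoke replicate 1; 161 without replicate 4, 184 without 12 week break replicate 2) to 258 at 12 weeks, and 0 to 2 against break sham. Of the genes named, Cyp1a1, Cyp1b1, Per2, Map3k6, Cbr3, Dbp, Nqo1 and Aldh3a1 kept their direction and call under every alternative run for them. So did Cys1, Hlf, Clmp, Gclm and Txnrd1. Cyp1a1 and Hlf had 23 alternatives and the others 24, because leaving out scanner-marked spots gave no value for Cyp1a1 and Hlf. Signs turned for 2 genes that were never called, Trim10 (0.095 with spot means) and S100a9 (−0.30 without marked spots). Low signal limits Arntl, above the negative controls on 2 of 5 smoke and 4 of 5 break arrays, Ahrr (5 and 3), Il6 (3 and 5), and Fkbp5 and Trim10 (4 and 4).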
